A study of Mus musculus with 10 samples.

Results

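Gene expression in CLN3-deficient retinas was compared with that in wild-type retinas of mice that had not been exposed to light, across 19505 genes. The members of the comparison were set by genotype and light label, which gave 4 of the 10 arrays in the series. Of these, 2 were from CLN3-deficient and 2 from wild-type mice. The comparison was chosen with earlier results of these data known. The CLN3-deficient mice carry the Cln3 delta ex7/8 knock-in, a deletion of exons 7 and 8 of *Cln3* that models juvenile neuronal ceroid lipofuscinosis. Their label names the mutation and no background strain, and the label of the wild-type mice gives Balb/c. By the methods of the study the mutant line had BALB/c ancestors and was later bred to C57BL/6J over 5 generations, wild-type mice of the light experiments were littermates, and the animals were 8 to 10 weeks old and of both sexes. The crosses brought the light-sensitive leucine variant of RPE65 into the mutant line, and the study states that the wild-type littermates carried it too. If the wild-type arrays came from Balb/c mice, as labelled, background strain and *Cln3* genotype cannot be told apart. The other 3 groups, of 2 arrays each, were light-exposed CLN3-deficient mice given sodium chloride solution or minocycline, and wild-type mice exposed to high light. They were used for the spread of each gene and to read the genes found without light on separate animals.

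CLN3 is a membrane protein of lysosomes and endosomes, and its loss leaves undegraded material in neurons and other cells. It is needed to clear glycerophosphodiesters, the breakdown products of membrane phospholipids, from lysosomes. In the retina, ceroid lipofuscinoses are known for loss of vision, reactive glia and autofluorescent storage material, so the genes of lysosomes, microglia, Müller glia and photoreceptors are natural readouts of a mutant retina at rest. Because the arrays measured RNA of whole retinas, fewer cells of a type and less RNA per cell cannot be told apart.

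The promoters of 4 genes on which the results turn are shown first, since *Gdpd3* lies close to *Cln3*, and *Hdhd3* and *Alad* are neighbours of each other. Each run of 300 bases is RefSeq sequence of GRCm38.p6 from the C57BL/6J reference and not from the animals measured. It begins upstream of a transcript start and ends a short way past it, 5′ to 3′ on the gene's own strand. The motifs searched on both strands were TCACGTGA, the core of the element bound by the lysosomal regulator TFEB, CACGTG, which lies inside it, and TAATCC, a homeobox site of photoreceptor genes. Capitals mark matches. The windows are *Cln3* at chr7:126583187-126583486 (minus strand), *Gdpd3* at chr7:126766164-126766463 (plus strand), *Hdhd3* at chr4:62502151-62502450 (minus strand) and *Alad* at chr4:62520014-62520313 (minus strand).
Cln3: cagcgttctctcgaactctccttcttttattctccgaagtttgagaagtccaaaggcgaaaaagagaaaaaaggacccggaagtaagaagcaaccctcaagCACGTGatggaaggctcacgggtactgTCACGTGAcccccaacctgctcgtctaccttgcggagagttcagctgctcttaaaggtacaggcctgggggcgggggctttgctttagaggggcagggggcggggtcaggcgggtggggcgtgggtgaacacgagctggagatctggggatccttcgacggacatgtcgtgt
Gdpd3: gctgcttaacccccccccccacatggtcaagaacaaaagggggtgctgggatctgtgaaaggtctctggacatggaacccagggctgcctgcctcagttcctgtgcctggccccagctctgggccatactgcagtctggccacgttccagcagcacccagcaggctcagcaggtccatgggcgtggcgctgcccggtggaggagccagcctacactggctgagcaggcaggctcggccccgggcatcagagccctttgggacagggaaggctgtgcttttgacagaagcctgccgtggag
Hdhd3: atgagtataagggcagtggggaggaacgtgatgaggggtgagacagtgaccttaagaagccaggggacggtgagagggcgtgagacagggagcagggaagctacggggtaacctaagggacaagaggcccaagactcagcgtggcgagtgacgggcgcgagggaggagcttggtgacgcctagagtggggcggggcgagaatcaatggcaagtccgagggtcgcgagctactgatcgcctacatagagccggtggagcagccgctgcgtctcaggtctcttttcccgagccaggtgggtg
Alad: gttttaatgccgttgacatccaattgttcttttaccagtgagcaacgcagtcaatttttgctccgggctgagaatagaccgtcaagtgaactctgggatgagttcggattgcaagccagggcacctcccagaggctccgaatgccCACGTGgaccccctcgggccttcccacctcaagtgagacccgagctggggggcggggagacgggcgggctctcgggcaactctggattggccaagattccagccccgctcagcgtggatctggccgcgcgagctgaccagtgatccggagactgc
This *Cln3* promoter held 1 TCACGTGA and 2 CACGTG, 1 of them inside the longer motif, and a second annotated *Cln3* promoter held neither. The *Alad* window held 1 CACGTG, and the *Gdpd3* and *Hdhd3* windows held no match. Of 32851 promoters of this length, 0.974% held TCACGTGA, 7.15% held CACGTG and 7.06% held TAATCC.

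The deposited values are log2 expression values, so a difference of 1 is a doubling of signal. Replicates correlated at 0.994 in the CLN3-deficient group and at 0.992 in the wild-type group (Pearson's r across genes, which are not independent). They stood further apart in the wild-type group, where 2.92% of genes differed by 1 or more between the 2 arrays, against 0.989% in the CLN3-deficient group. Both unexposed CLN3-deficient arrays lacked Y-linked transcripts and both unexposed wild-type arrays had them: *Eif2s3y*, a Y-linked translation factor gene, was at 3.04 and 2.79 in CLN3-deficient and at 11.76 and 11.49 in wild-type retinas. Sex and genotype therefore cannot be told apart on these 4 arrays. Skeletal muscle genes were high on CLN3-deficient replicate 1 alone, and lens genes were higher on both wild-type arrays, as given below. The *Cln3* cluster was at 9.14 and 9.18 in CLN3-deficient and at 10.72 and 10.30 in wild-type retinas, a log2 difference of −1.35 (SE 0.30, limma adjusted p = 0.716). The groups did not overlap, but the difference did not pass the adjusted threshold. The exons that its probes cover were not known, so this value does not check the genotype labels.

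Few genes passed the adjusted threshold between the 2 genotypes without light. Of 19505 genes, 9 (0.0461%) were called at an adjusted p under 0.05 (limma over all 10 arrays, Benjamini-Hochberg), 6 higher (0.0308%) and 3 lower (0.0154%) in CLN3-deficient retinas. At an unadjusted p under 0.05 there were 849 genes (4.35%), 2.1% higher and 2.26% lower, where 5% would be expected if no gene differed. The median log2 difference of all genes was −0.015 and the median half-width of the 95% interval of a gene 0.52. The smallest difference among the called genes was 1.62 in size, so genes that differ by less can have gone uncalled with 2 arrays per group. Some genes that differ by more also went uncalled, where their spread was wide. The small count does not show that the other genes are alike. The called genes were *Gdpd3*, *Diaph3*, *Cdcp3*, *Ppp1r3a*, *Ccl27a* and *LOC100861978* on the higher side and *Gm4792*, *Hdhd3* and *Tmtc2* on the lower side. The predicted genes *LOC100861978* and *Gm4792* were named after their values were seen. Chromosome 4 held 3 of the 9, chromosome 7 held 2, and X and Y held 0.

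**Figure D1:**
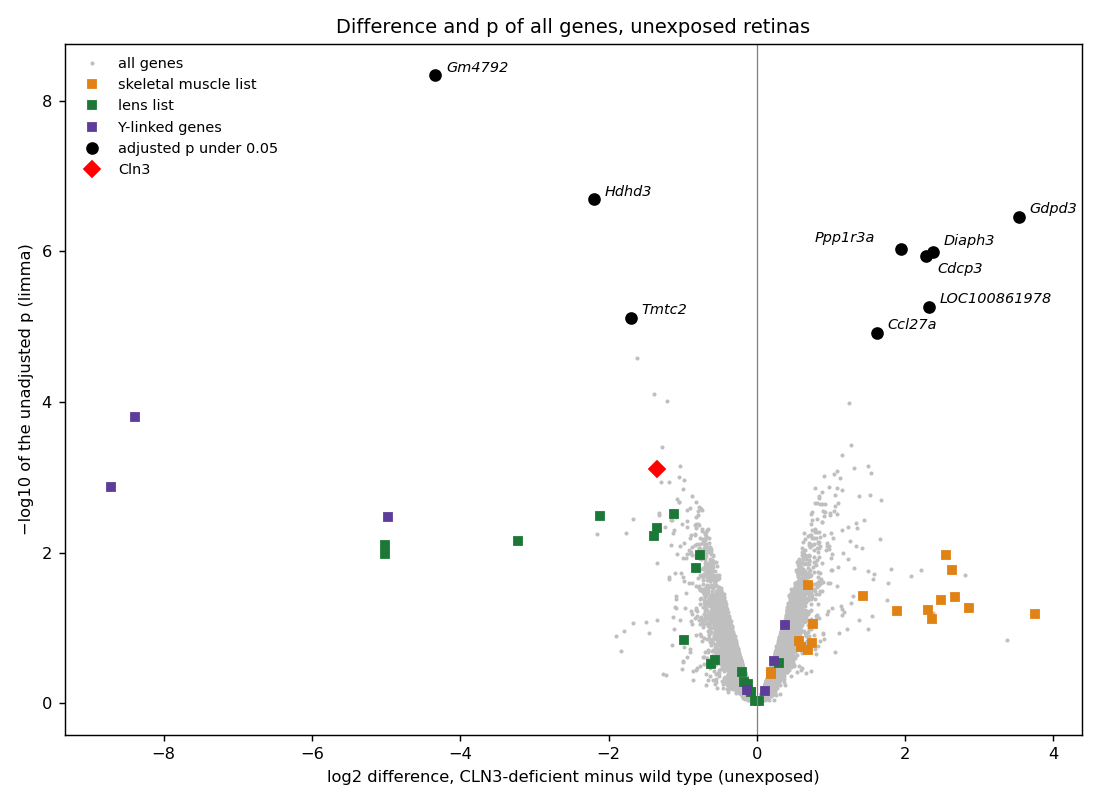
Log2 difference of each gene between unexposed CLN3-deficient and wild-type retinas (x axis) against −log10 of the unadjusted limma p (y axis). The 9 called genes (black) lie apart from the bulk, while Y-linked (purple), lens (green) and skeletal muscle (orange) genes have large differences with larger p values, and *Cln3* is the red diamond.

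*Gdpd3*, which encodes a lysophospholipase D of the glycerophosphodiester phosphodiesterase family, had the largest rise among the called genes. It was at 8.42 and 8.48 in CLN3-deficient retinas and at 4.82 and 5.01 in wild-type retinas. Both mutant arrays were thus far above both wild-type arrays, by 3.54 on the log2 scale or 11.6-fold (SE 0.34, 95% interval 2.79 to 4.28, limma adjusted p = 0.00226). *Gdpd3* is also the 9th measured gene after *Cln3* on chromosome 7. The 5 measured genes on either side of *Gdpd3* had differences between −0.46 and 0.375, and 0 of these 10 had an unadjusted p under 0.05.

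*Hdhd3*, which encodes a hydrolase-like protein of the haloacid dehalogenase family, fell. It was at 5.77 and 5.93 in CLN3-deficient retinas, against 7.91 and 8.19 in wild-type retinas, a log2 difference of −2.20 (SE 0.20, limma adjusted p = 0.00198). Its neighbour on chromosome 4 is *Alad*, which encodes an enzyme of heme synthesis. *Alad* was at 9.26 and 9.28 in CLN3-deficient and at 10.32 and 10.64 in wild-type retinas, a difference of −1.21 in the same direction that did not pass (SE 0.21, limma adjusted p = 0.154). Of the other 9 genes around *Hdhd3*, 0 were called, and *Wdr31*, a WD-repeat gene on its other side, differed the opposite way by 1.08 (limma adjusted p = 0.997).

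*Gm4792*, annotated by RefSeq as a long non-coding RNA on chromosome 10, had the largest difference of the called genes. It was at 8.85 and 8.42 in CLN3-deficient and at 13.39 and 12.55 in wild-type retinas, a log2 difference of −4.34 or 20.2-fold lower in CLN3-deficient retinas (SE 0.28, limma adjusted p = 9.03e-05). The 10 measured genes beside it ran between −0.51 and 0.24. *Tmtc2*, an endoplasmic reticulum protein gene of the O-mannosyltransferase family, was at 10.88 and 10.63 in CLN3-deficient and at 12.42 and 12.49 in wild-type retinas. It fell by 1.70 on the log2 scale (SE 0.22, limma adjusted p = 0.0187), and the 10 genes beside it ran between −0.135 and 0.19.

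*Diaph3*, a formin that nucleates actin filaments, was at 9.70 and 10.19 in CLN3-deficient and at 7.63 and 7.52 in wild-type retinas (difference 2.37, SE 0.25, limma adjusted p = 0.00379). *Cdcp3*, a gene named for the CUB domains of its product, was at 14.34 and 14.33 in CLN3-deficient and at 12.40 and 11.70 in wild-type retinas (difference 2.29, SE 0.25, limma adjusted p = 0.00379). It lies on chromosome 7, 98 measured genes after *Cln3*. Its mutant arrays were nearly identical while its wild-type arrays differed. *Ppp1r3a*, the muscle glycogen-targeting subunit of protein phosphatase 1, was at 6.67 and 6.58 in CLN3-deficient and at 4.56 and 4.79 in wild-type retinas (difference 1.95, SE 0.21, limma adjusted p = 0.00379). *Ppp1r3a* was high on both mutant arrays, whereas the skeletal muscle list was high on replicate 1 only. *Smyd1*, a muscle methyltransferase gene, had the same form without passing, with 5.55 and 5.43 in CLN3-deficient retinas, against 4.17 and 4.33 in wild-type retinas (limma adjusted p = 0.154).

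*Ccl27a*, a chemokine gene best known from skin, was at 12.50 and 12.18 in CLN3-deficient and at 10.66 and 10.79 in wild-type retinas, a difference of 1.62 (SE 0.22, limma adjusted p = 0.0262). *LOC100861978*, which has no further name in the tables used, was at 12.11 and 11.61 in CLN3-deficient and at 9.29 and 9.78 in wild-type retinas (difference 2.33, SE 0.29, limma adjusted p = 0.0153). Its cluster lies on an unplaced sequence assigned to chromosome 4, the chromosome of *Ccl27a*. A cluster without a gene symbol on another unplaced sequence of chromosome 4 had the same values on all 4 unexposed arrays, so near-identical copies may share probes and their levels are uncertain one by one. Among the 10 measured genes around *Ccl27a*, 0 were called and 3 had an unadjusted p under 0.05, with differences between −1.05 and 1.06. Chromosome 4 held 7 of the 26 genes with an unadjusted p under 0.001 and 1179 of all measured genes.

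**Figure D2:**
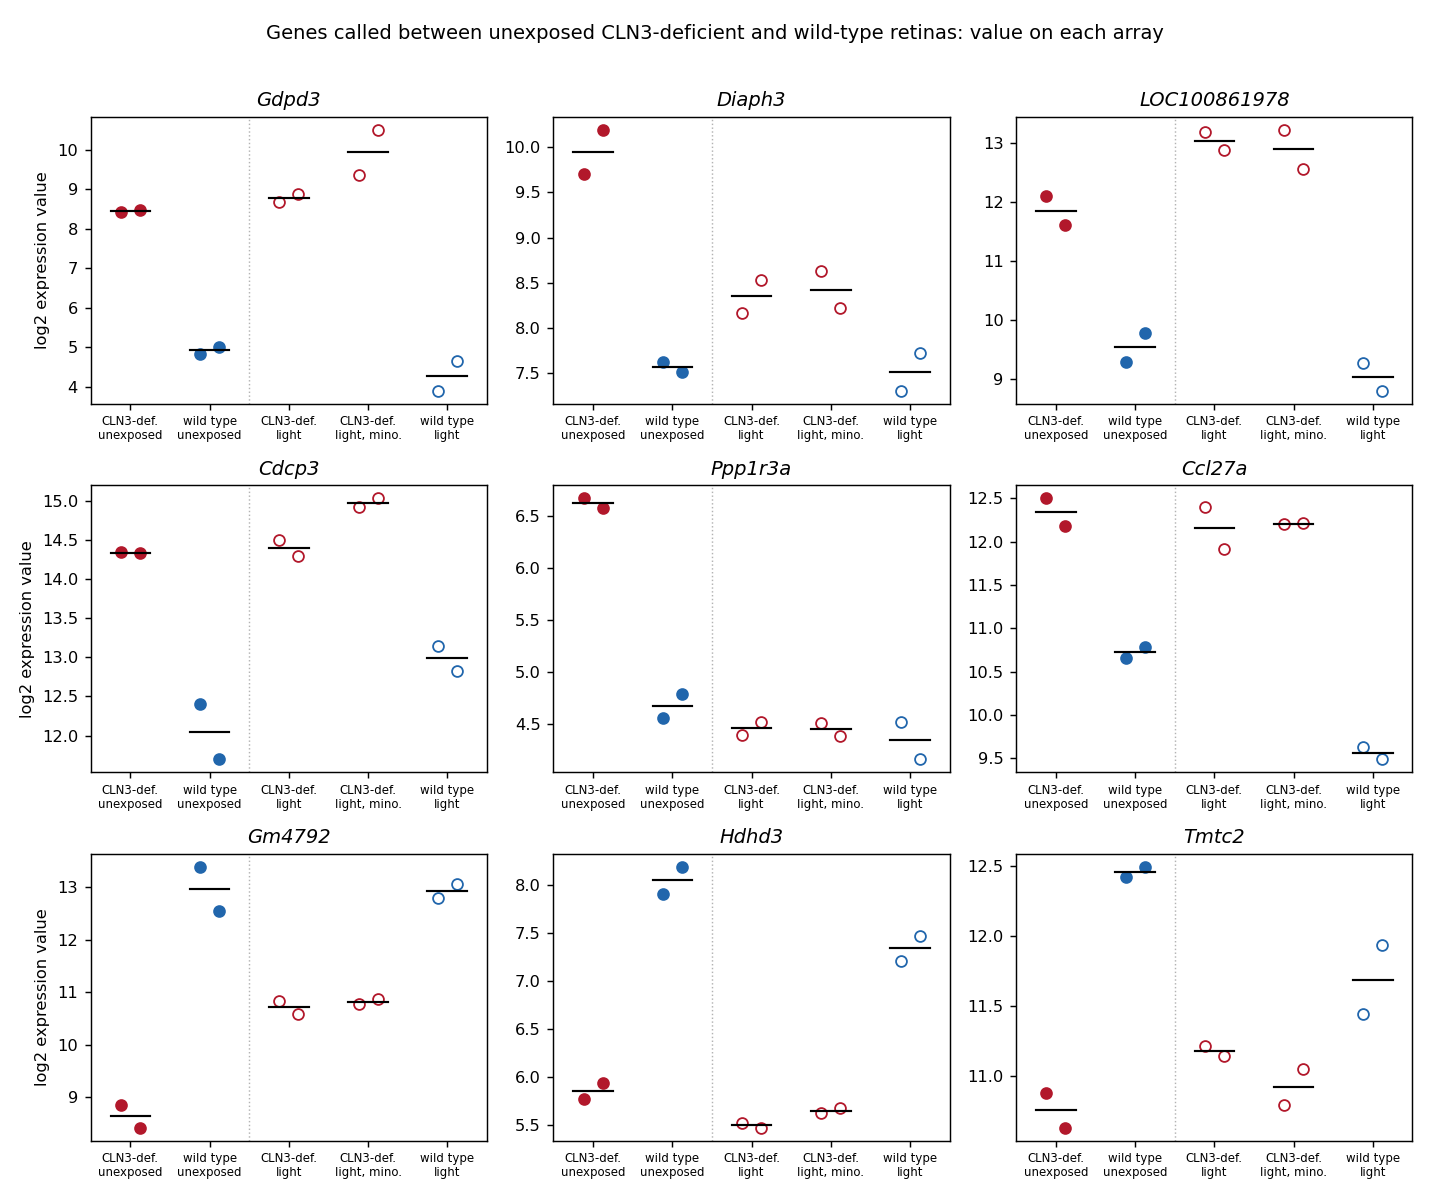
Log2 expression value (y axis) of the 9 called genes on each of the 10 arrays, by group (x axis), in CLN3-deficient (red) and wild-type (blue) retinas. Filled points are unexposed and open points light-exposed arrays, and the black line is the mean of the 2 arrays. Unexposed groups do not overlap for any of the 9, and after light *Ppp1r3a* is the gene whose genotypes overlap.

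The next genes by p did not pass the adjusted threshold. *Cyp2j13*, a cytochrome P450 gene on chromosome 4, was nearest, with 6.03 and 5.76 in CLN3-deficient retinas, against 7.47 and 7.55 in wild-type retinas (difference −1.62, limma adjusted p = 0.0503). *Rras2*, a Ras-related GTPase gene on chromosome 7, was at 8.11 and 7.78 in CLN3-deficient and at 9.27 and 9.38 in wild-type retinas (difference −1.38, limma adjusted p = 0.140). Other genes whose groups did not overlap had larger p values, among them *Btc*, an epidermal growth factor family ligand (difference 1.28), *Bst1*, an ADP-ribosyl cyclase (1.5), *Kcnk1*, a potassium channel (−1.18), and *Vip*, an amacrine cell neuropeptide (−1.0). Their adjusted p ran between 0.480 and 0.794 (limma). Non-overlap of 2 against 2 arrays is common by itself: it held for 15.6% of genes higher and 17% lower in CLN3-deficient retinas.

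The cut-off of the study's methods asks for a log2 difference of 2 or more either way with an unadjusted p below 0.05, and 21 genes passed it (0.108%), 11 higher and 10 lower in CLN3-deficient retinas. These were 6 of the 9 called genes and 15 others. Of the 11 higher genes, 4 were in the skeletal muscle list, and of the 10 lower genes, 3 were Y-linked and 4 were in the lens list. *Cryba1*, a lens beta-crystallin gene, was at 7.87 and 6.65 in CLN3-deficient and at 11.78 and 12.78 in wild-type retinas, a difference of −5.02 (SE 1.57, limma adjusted p = 0.903). *Cryaa*, a lens alpha-crystallin gene, had the same form, with a difference of −5.02 (SE 1.64, limma adjusted p = 0.920). *Myh4*, a fast skeletal myosin, was at 9.85 and 4.46 in CLN3-deficient and at 4.49 and 4.47 in wild-type retinas, so only mutant replicate 1 was high. *Myh8* and *Mybpc1*, also among the 11 but not in the muscle list, were highest on that array too. *Myh8* was at 11.72 and 7.41 in CLN3-deficient and at 6.04 and 7.47 in wild-type retinas. *Mybpc1* was at 8.96 and 5.80, against 5.30 and 5.31. *Egr1*, an immediate early transcription factor, was at 8.66 and 8.43 in CLN3-deficient and at 10.08 and 11.33 in wild-type retinas (difference −2.16, limma adjusted p = 0.896).

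The genes beside *Cln3* were read in chromosome order. Of the 25 measured genes on either side, 1 of 50 was called (*Gdpd3*) and 5 (10%) had an unadjusted p under 0.05, against 4.35% of all genes. Their median difference was −0.03. Over 100 genes on either side, 2 of 200 were called and 15 (7.5%) had an unadjusted p under 0.05. *Eif3c*, a translation initiation factor subunit and the nearest gene on the other side of *Cln3* from *Gdpd3*, differed by −0.19, *Atxn2l* by −0.38 and the mitochondrial elongation factor gene *Tufm* by −0.10, while *Apobr*, an apolipoprotein B receptor gene directly after *Cln3*, differed by 0.71 (limma adjusted p = 0.962). *Atp2a1*, the calcium pump of fast skeletal muscle, is the 5th gene before *Cln3*. It was at 9.62 and 4.78 in CLN3-deficient and at 5.03 and 4.76 in wild-type retinas, the pattern of the muscle list. Also among the 5 genes on either side, *Sh2b1* differed by −0.385, *Il27* by 0.22, *Sgf29* by −0.05 and *Sult1a1* by 0.375. *Nupr1* was at 9.47 and 9.13 in CLN3-deficient and at 7.77 and 9.02 in wild-type retinas (difference 0.905, limma adjusted p = 0.997). Its difference after light was 2.22 (limma adjusted p = 0.102). *Cyp2r1*, a vitamin D hydroxylase gene 100 genes before *Cln3*, was at 5.93 and 6.14 in CLN3-deficient and at 4.99 and 4.04 in wild-type retinas (difference 1.52, limma adjusted p = 0.815).

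**Figure D3:**
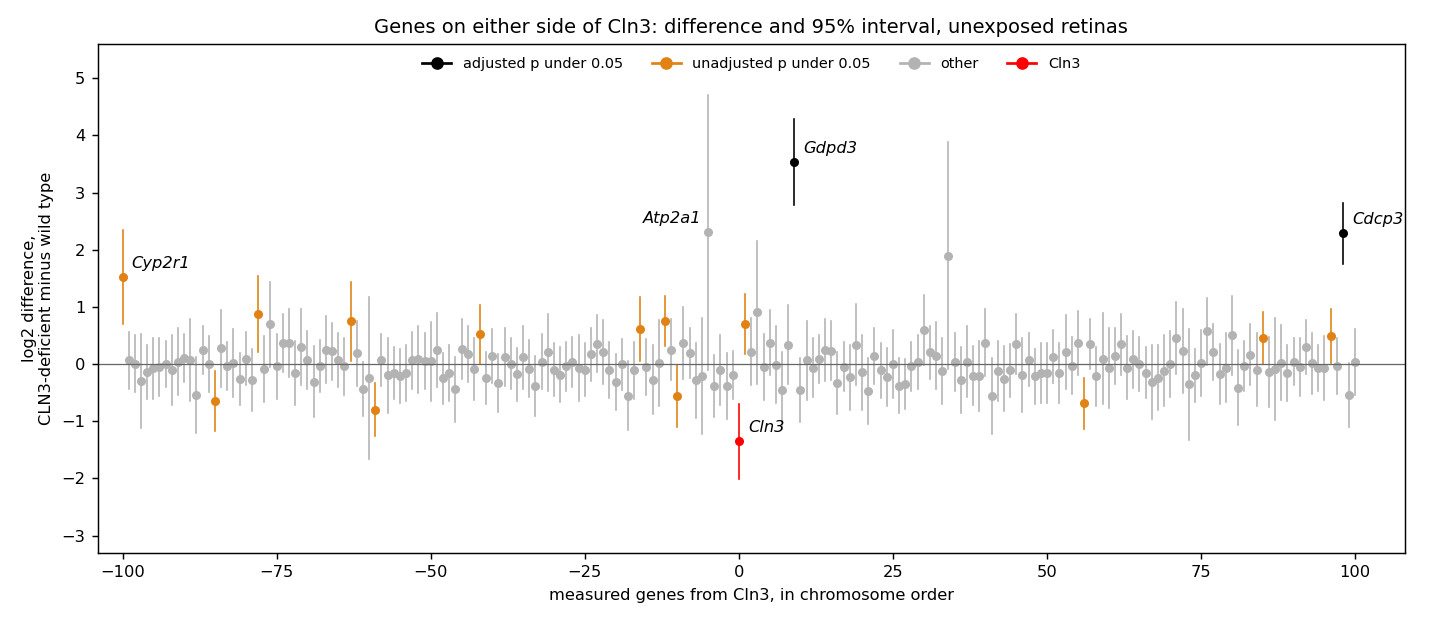
Log2 difference between unexposed CLN3-deficient and wild-type retinas (points) with its 95% interval (bars) for the 100 measured genes on either side of *Cln3*, in chromosome order (x axis, counted in genes). *Gdpd3* and *Cdcp3* (black) are the called genes in the window, *Cln3* is red, genes at an unadjusted p under 0.05 are orange, and most neighbours have intervals that include 0.

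The called genes were then read in light-exposed retinas, on arrays that the unexposed comparison does not share and where Y-linked transcripts lay the other way round, high in vehicle-injected CLN3-deficient and low in wild-type retinas. These CLN3-deficient mice were injected daily and, by the treatment protocol, had low light, whereas the wild-type mice had high light and no injection is given for them. Light dose, injection and genotype cannot be told apart in the differences after light. If the wild-type mice were Balb/c, background strain cannot be told apart from genotype after light either. All 9 had the same sign there, and 6 of the 9 (66.7%) were among the 156 genes called after light (0.8% of all genes, 0.687% higher and 0.113% lower), in the same direction. These 6 were 3.85% of the 156. *Gdpd3* differed by 4.52 after light (limma adjusted p = 2.49e-04), with 8.68 to 10.5 on the 4 light-exposed CLN3-deficient arrays, minocycline included, and 3.90 and 4.64 on the wild-type arrays. *Hdhd3* differed by −1.85 (limma adjusted p = 0.00494), with 5.47 to 5.67 in CLN3-deficient retinas, against 7.21 and 7.47 in wild-type retinas. *LOC100861978*, *Ccl27a* and *Cdcp3* differed by 4.01, 2.60 and 1.42 (limma adjusted p = 2.49e-04, 6.10e-04 and 0.0295). *Gm4792* differed by −2.22 (limma adjusted p = 0.0118).

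For the other 3 called genes the difference after light was smaller and did not pass. *Diaph3* differed by 0.84 and *Tmtc2* by −0.51 (limma adjusted p = 0.144 and 0.304), with light-exposed arrays that still did not overlap. *Ppp1r3a* was at 4.38 to 4.52 in light-exposed CLN3-deficient and at 4.16 and 4.52 in light-exposed wild-type retinas, a difference of 0.12 (limma adjusted p = 0.843). The unexposed mutant arrays were thus the only ones with *Ppp1r3a* above 5. The difference between the unexposed and the light-exposed contrast passed adjustment for 0 of 19505 genes, these 9 included (limma). At an unadjusted p under 0.05 were 7 of the 9, against 11.1% of all genes (limma). The 9 were chosen by their unexposed difference, which is part of this contrast, so that share is not independent of the choice. On the light-exposed arrays alone, 4 CLN3-deficient and 2 wild-type, the genotypes did not overlap for 8 of the 9 genes, in the direction seen without light. Of all genes 25.4% did not overlap there, 11.5% higher and 13.9% lower in CLN3-deficient retinas. *Alad* did not overlap on these arrays either, with a difference of −2.20 there (limma adjusted p = 0.00140).

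None of the 538 measured members of 32 gene lists was called without light. At an unadjusted p under 0.05 (limma) there were 45 listed genes (8.36%), and the methods' t-test called 0 after adjustment. With the muscle, lens, Y-linked and X lists set aside, 23 of 486 listed genes (4.73%) had an unadjusted p under 0.05, against 4.35% of all genes. The strain-variable list had no measured member.

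Lysosomal genes were near all measured genes in these counts. Of 73 measured genes in the ceroid lipofuscinosis and lysosome lists, 0 were called and the median difference was −0.08. An unadjusted p under 0.05 was found for 4 (5.48%), *Cln3* among them, against 4.35% of all genes (limma). The 95% interval lay within 1 log2 unit of 0 for 63 of the 73, and for 16852 of all 19505 genes. *Tpp1*, the peptidase lost in late infantile ceroid lipofuscinosis, was at 15.16 and 15.11 in CLN3-deficient and at 15.28 and 15.42 in wild-type retinas. *Cd63*, a tetraspanin of late endosomes and lysosomes, was at 11.27 and 11.19 in CLN3-deficient and at 11.63 and 12.36 in wild-type retinas (difference −0.77, limma adjusted p = 0.904). *Sgsh*, a heparan sulfate hydrolase, was at 7.77 and 7.84 in CLN3-deficient and at 8.12 and 9.70 in wild-type retinas, with most of its difference of −1.11 set by wild-type replicate 2. Autophagy genes had a median of −0.115 over 25 genes, 0 of them with an unadjusted p under 0.05 (limma). The 16 ATP synthase genes had a median of −0.21, and *Atp5g1*, which encodes the c subunit that accumulates in ceroid lipofuscinosis storage material, was at 13.88 and 13.41 in CLN3-deficient and at 14.40 and 13.95 in wild-type retinas.

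Markers of microglia, complement, interferon response and antigen presentation also had 0 called members among 115 genes, with a median of −0.16. An unadjusted p under 0.05 was found for 4 (3.48%, limma), all lower in CLN3-deficient retinas, against 4.35% of all genes. Their intervals were wide, and lay within 1 log2 unit of 0 for 41 of the 115, against 16852 of all 19505 genes. *Cx3cr1*, the fractalkine receptor of microglia, was at 4.88 and 4.74 in CLN3-deficient and at 5.63 and 6.30 in wild-type retinas (difference −1.16, limma adjusted p = 0.903). *Tspo* and *Il1b*, read as markers of reactive microglia, differed by −0.34 and 0.30. The study itself reported higher TSPO and CD68 in unexposed CLN3-deficient retinas, measured by quantitative PCR. Its staining of unexposed retinas for Iba1, TSPO and GFAP showed no clear difference by genotype. The array value of *Cd68* is not given here. The array difference of *Tspo* had the other sign and was not called. The wild-type array kept in the fit set the sign of the homeostatic microglia list, whose median of −0.28 was −0.995 without wild-type replicate 1 and 0.395 without wild-type replicate 2. Leaving out wild-type replicate 1 also made *Lyz2*, a lysozyme of macrophages, a call at −4.86 (limma adjusted p = 0.0490). With Y-linked transcripts in the fit, 4 interferon-stimulated genes were called higher in CLN3-deficient retinas, *Ifit3* at 3.86, *Ifit3b* at 4.11, *Oasl2* at 5.80 and *Rtp4* at 2.92, and that fit rests on the 2 minocycline-treated arrays.

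Müller glia showed the same split. *Gfap*, the intermediate filament of reactive glia, was at 9.37 and 8.51 in CLN3-deficient and at 7.21 and 10.90 in wild-type retinas, so the mutant values lay between the wild-type ones. *Lcn2*, a secreted marker of reactive glia, was at 8.65 and 8.40 in CLN3-deficient and at 8.21 and 11.76 in wild-type retinas. In these genes wild-type replicate 2 was the highest of the 4 arrays. *Fgf2*, a growth factor that protects photoreceptors, was at 10.81 and 11.46 in CLN3-deficient and at 8.99 and 10.61 in wild-type retinas (difference 1.34, limma adjusted p = 0.903). *Edn2*, an endothelin made by stressed photoreceptors, was at 7.78 and 8.66 in CLN3-deficient and at 6.0 and 7.43 in wild-type retinas (difference 1.51, limma adjusted p = 0.997). Their groups did not overlap, and neither passed. *Cd44* was lower, at 9.75 and 9.53 in CLN3-deficient and at 10.61 and 11.44 in wild-type retinas (difference −1.39, limma adjusted p = 0.896). The mean of the reactive Müller glia list, relative to each gene's mean over all arrays, was −0.72 and −0.71 on the mutant arrays and −1.46 and 0.25 on the wild-type arrays.

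Neuronal lists were close to 0. Of 32 rod genes, 27 had a positive difference, with a median of 0.17, 0 called and 0 at an unadjusted p under 0.05 (limma). The difference was positive for 9300 of all 19505 genes. *Gucy2f*, a retinal guanylate cyclase, was at 14.09 and 14.27 in CLN3-deficient and at 14.06 and 13.26 in wild-type retinas. *Pde6a*, the alpha subunit of rod phosphodiesterase, was at 17.87 and 17.99 in CLN3-deficient and at 17.74 and 17.43 in wild-type retinas. In both, wild-type replicate 2 was the low array. Rod list means were 0.50 and 0.52 on the mutant arrays and 0.56 and 0.07 on the wild-type arrays. Cone and bipolar lists had medians of −0.045 and −0.06 with 0 genes at an unadjusted p under 0.05 (limma). The amacrine and horizontal cell list had means of 0.17 and −0.01 on the mutant arrays and 0.17 and 0.42 on the wild-type arrays. Of all 19505 genes, 10136 had a negative difference. Amacrine and horizontal cell genes were negative in 18 of 20, with a median of −0.15. Among them *Chat*, the acetylcholine-synthesising enzyme of starburst amacrine cells, was at 7.16 and 6.39 in CLN3-deficient and at 7.29 and 7.60 in wild-type retinas. *Sncg*, a ganglion cell synuclein, was at 14.35 and 13.96 in CLN3-deficient and at 14.62 and 14.85 in wild-type retinas.

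**Figure D4:**
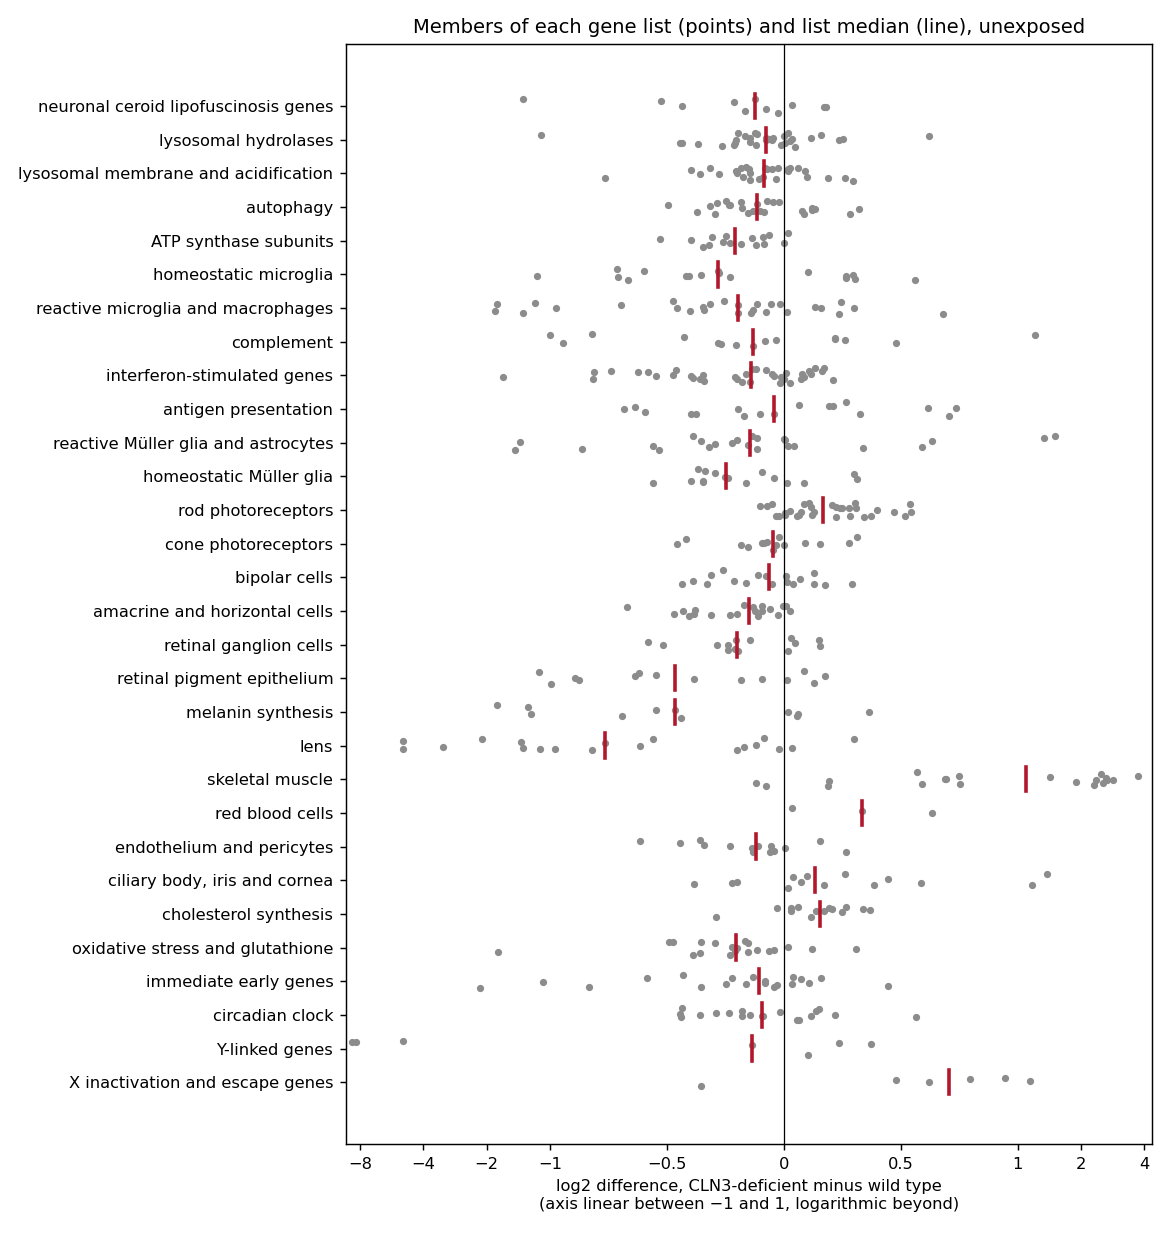
Log2 difference of each measured list member (points) and the median of the list (red line) between unexposed CLN3-deficient and wild-type retinas, on an axis that is linear between −1 and 1 and logarithmic beyond. Neuronal, lysosomal and glial medians lie close to 0, while the medians of skeletal muscle (1.09), lens (−0.77) and X escape genes (0.71) stand off.

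The largest list medians were those of skeletal muscle and lens, tissues outside the neural retina, followed by X inactivation and escape genes (0.71). Of 20 skeletal muscle genes, 6 had an unadjusted p under 0.05, all higher in CLN3-deficient retinas, and the median was 1.09. The list mean was 2.48 on CLN3-deficient replicate 1, −0.42 on replicate 2, and −0.39 and −0.47 on the wild-type arrays. *Mb*, the muscle oxygen-binding protein, was at 11.66 and 6.75 in CLN3-deficient and at 6.71 and 6.74 in wild-type retinas. Of 19 lens genes, 9 had an unadjusted p under 0.05, all lower in CLN3-deficient retinas, with list means of −0.49 and −0.78 on the mutant and 0.42 and 0.76 on the wild-type arrays. *Crygs*, a crystallin of the lens cortex, was at 4.49 and 4.10 in CLN3-deficient and at 7.26 and 7.76 in wild-type retinas. The part of muscle or lens tissue in these values was not tested. Retinal pigment epithelium genes had a median of −0.465 with 0 at an unadjusted p under 0.05 (limma). Their list means were −0.43 and −0.56 on the mutant and −0.39 and 0.25 on the wild-type arrays, so wild-type replicate 1 was near the mutant arrays. *Rpe65* was at 7.52 and 7.73 in CLN3-deficient and at 8.00 and 9.24 in wild-type retinas.

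**Figure D5:**
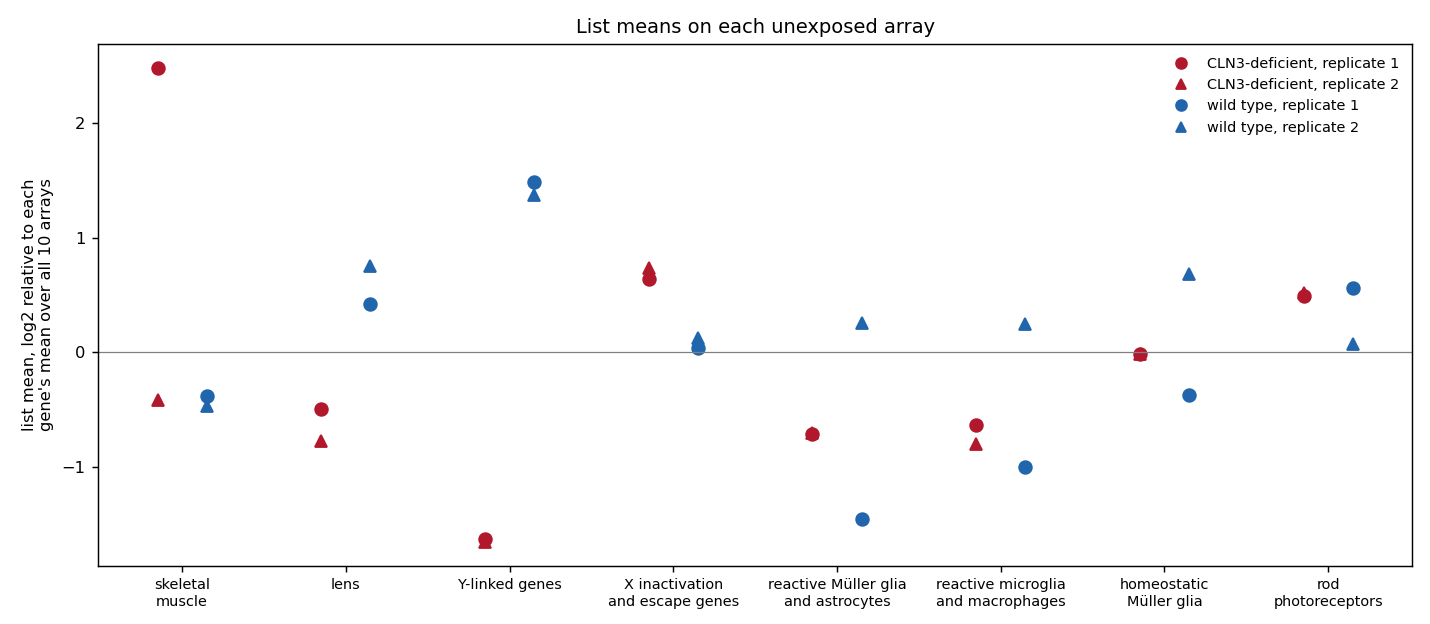
Mean of each gene list on the 4 unexposed arrays, as log2 relative to each gene's mean over all 10 arrays (y axis), for CLN3-deficient (red) and wild-type (blue) retinas, with circles for replicate 1 and triangles for replicate 2. Muscle genes are high on 1 CLN3-deficient array, lens and Y-linked genes on both wild-type arrays, and the 2 wild-type arrays lie on either side of the CLN3-deficient arrays for the Müller glia and microglia lists.

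The 2 largest differences of all genes were Y-linked, those of *Eif2s3y* and *Uty*. *Uty*, a Y-linked relative of a histone demethylase, was at 4.13 and 3.5 in CLN3-deficient and at 12 and 12.41 in wild-type retinas (difference −8.39, limma adjusted p = 0.221), and after light its difference was 7.93. *Kdm5c*, an X-linked demethylase gene that escapes inactivation, was at 12.70 and 13.04 in CLN3-deficient and at 12.06 and 11.38 in wild-type retinas. *Kdm6a*, another such gene, was at 14.33 and 14.31 in CLN3-deficient and at 13.48 and 13.27 in wild-type retinas. Of 6 X genes of this list, 4 had an unadjusted p under 0.05, all higher in CLN3-deficient retinas, where 2.1% of all genes were higher at that p. The main fit takes the spread of a gene from all 10 arrays, and Y-linked and lens genes also varied within light-exposed groups. On the 2 minocycline-treated arrays *Eif2s3y* was at 12.96 and 3.07, and *Cryba1* at 13.93 and 7.80. The SE of the unexposed *Eif2s3y* difference was 2.07 in that fit. In a limma fit over only the 4 unexposed arrays, 3 Y-linked and 3 lens genes passed the adjusted threshold.

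Immediate early genes and redox genes had a few members apart. Of 20 immediate early genes, 4 were lower and 1 higher at an unadjusted p under 0.05 and 0 were called (limma). Of all genes, 2.26% were lower and 2.1% higher at that p. *Fos*, an AP-1 transcription factor gene, was at 6.28 and 6.63 in CLN3-deficient and at 7.15 and 7.43 in wild-type retinas. *Dusp1*, a phosphatase that turns off MAP kinases, was at 11.42 and 11.13 in CLN3-deficient and at 12.46 and 12.25 in wild-type retinas. After light both differences were positive, at 0.37 and 1.37. *Slc7a11*, the cystine transporter that feeds glutathione synthesis, was at 6.78 and 7.66 in CLN3-deficient and at 8.38 and 9.60 in wild-type retinas (difference −1.77, limma adjusted p = 0.896), and −1.63 after light. The 14 cholesterol synthesis genes were positive in 12, against 9300 of all 19505 genes, with a median of 0.155. Their intervals were all within 1 log2 unit of 0. Means of this list were 0.54 and 0.46 on the mutant arrays and 0.61 and 0.13 on the wild-type arrays. Clock genes had a median of −0.095 over 19 genes. *Apod*, an apolipoprotein of stressed glia, was at 8.24 and 6.80 in CLN3-deficient and at 5.79 and 6.64 in wild-type retinas (difference 1.31, limma adjusted p = 0.997).

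The set of called genes rested on the arrays in it. Without CLN3-deficient replicate 2 there were 26 calls, 9 of them muscle genes, and without any other unexposed array 4 to 6, where the lone array left in a group was assumed to vary like the other groups. *Gdpd3*, *Hdhd3* and *Gm4792* were called in all 4 of these fits, and *Tmtc2* in 0 of them. When presence or absence of Y-linked transcripts was added to the fit, which rests on the 2 minocycline-treated arrays, *Gm4792* was the called gene that still passed (difference −4.43), and *Gdpd3* had a difference of 2.40 (limma adjusted p = 0.115).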

How the data were processed

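Total RNA of retinas from 10 mice was measured on Affymetrix Clariom S mouse arrays, 1 array per animal and 2 animals per group (the methods name another Affymetrix mouse array, but the cluster names are those of Clariom S). The labels give each array its own animal number, and p-values measure the spread between these animals. The authors deposited log2 expression values per transcript cluster, made with Affymetrix Expression Console according to the submitters' processing notes; its version, its settings and the scan dates were not stated in any source used. They spanned 2.7 to 19.5, with array medians between 7.135 and 7.25, and no further normalization or filter was applied. Array data hold no read depth, so precision is limited by the number of arrays.

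Of 22206 clusters, the platform annotation gave 19572 a single gene symbol, 0 carried several and 2634 were not listed there. For 55 genes with several clusters the brightest cluster by its mean across arrays stood for the gene, giving 19505 genes. All of them matched RefSeq (GRCm38.p6) by Entrez ID, which gave chromosomes, gene order and promoters; the files name no build, so no gene coordinates are printed from this match. Groups came from the labels. limma 3.58.1 in R 4.3.3 was fitted with 1 mean per group over all 10 arrays (lmFit, eBayes without trend), and p was adjusted by Benjamini-Hochberg over 19505 genes. The script was tested on simulated data. The study names no test for its arrays and gives a cut-off (log2 fold change of 2 or more, p under 0.05); the unpaired test of its general statistics, here the methods' t-test, was an alternative. Python 3.11.15 with pandas 2.3.3 and matplotlib 3.10.9 made the tables and plots.

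The comparison, its members and the 32 gene lists (603 genes, 538 measured) were chosen with earlier results of these data known. Genes named were called genes without overlap between groups (up to 15 in each direction, filled by smallest p as values only). Also named were up to 4 members of a list with the smallest p and some of the genes the paper names. The 5 genes on either side of *Cln3* were named too. *Lyz2*, *Lcn2*, *Cyp2r1*, *Wdr31*, *Myh8*, *Mybpc1* and the interferon genes called with the covariate were picked after their values were seen. Alternatives were quantile normalization, centring of arrays, dropping the dimmest 30% of genes, trend and robust options of eBayes, fits over fewer groups, the methods' t-test, every transcript cluster, other thresholds, Y-linked transcripts as a covariate and leaving out each unexposed array. Counts without X and Y genes were added after seeing the data.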

Additional observations from a re-analysis of the deposited data

Results flagged for a closer look

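Clusters without a gene symbol were outside the gene comparison, and 3 of them passed an adjusted p under 0.05 in a limma fit over all 22206 clusters. All 3 carry names of chromosome 4 and were higher in CLN3-deficient retinas. TC4_JH584293_random00000007.mm.2 was at 12.11 and 11.61 in CLN3-deficient and at 9.29 and 9.78 in wild-type retinas, a log2 difference of 2.33 (more exactly 2.325, limma adjusted p = 0.0169), the same values as *LOC100861978*. TC0400000396.mm.2 was at 12.03 and 11.52 in CLN3-deficient and at 9.42 and 9.91 in wild-type retinas (difference 2.11, limma adjusted p = 0.0479). TC0400000413.mm.2 was at 11.46 and 10.95 in CLN3-deficient and at 9.27 and 9.47 in wild-type retinas (difference 1.835, limma adjusted p = 0.0470). In all 3, replicate 1 was the higher mutant and the lower wild-type array. Which gene each measures is not given in the tables used.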

How the results depend on the processing

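The count of 9 called genes was 8 to 13 under the other limma settings without a covariate, and all 9 genes were among those called after quantile normalization, after centring the arrays and with trend and robust. The methods' t-test called 5 genes, 0 of them among the 9, and the Y-linked covariate 13, with 1 of the 9. Leaving out 1 array gave 4 to 26 calls. No called gene changed direction: of 62 values under other settings 43 kept their call and 19 lost it, as did 21 and 15 of 36 values without 1 array. Of the list medians, 300 stayed within the replicate spread and 41 moved beyond it.

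The 21 genes at the methods' cut-off were 9 with trend and robust, 13 by the methods' t-test, 106 with the Y-linked covariate, 14 to 41 without 1 array, and 9 at 2-fold and an adjusted p. Called list members were 0, but 6 in a fit over only the unexposed arrays, 7 with the covariate (4 interferon-stimulated genes higher and 3 pigment epithelium or melanin genes lower) and 0 to 9 without 1 array. Beside *Cln3* 1 gene was called, 0 by the methods' t-test and with the covariate, and 1 to 2 without 1 array. Genotype by light called 0 genes, and 79 in a fit over the 4 groups compared. The cause of these shifts was not tested. No paired analysis was possible because the labels number each animal separately. With 2 arrays per group, differences below the smallest called one, 1.62 in size, can have gone uncalled. Larger ones also went uncalled where the spread was wide, as for *Cryba1* at −5.02 (SE 1.57). Sex could not be told apart from genotype.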
